A study of Mus musculus with 9 samples.

Results

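The inhibitor MK1775 was set against a negative control in 4T1, an epithelial tumour line from mouse mammary gland, and the comparison was read across all genes of the deposited expression table. Its members are the gene names whose FPKM (a read level per transcript length and library size), summed over the named transcripts, had a mean of at least 1 over the 6 libraries compared. Of 52325 gene names, 10332 met this rule. Of these, 10327 lay on 1 chromosome and were tested, and the other 5 were named on more than 1 chromosome and left out. The level alone chose the members, not the difference between groups.

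The study holds 9 libraries of total RNA from 4T1 cells sampled at day 2, in 3 groups of 3. One group is a negative control (NC), one was treated with MK1775, and the third is labelled as Wee1 siRNA and enters here only as part of the shared estimate of spread. All groups were grown in the same serum-containing medium and share the label of a proliferation inhibition protocol. The labels give no dose of MK1775, no vehicle for NC and no statement that replicates came from separate cultures. Effects of vehicle or handling that separate NC from MK1775 therefore cannot be told apart from those of the inhibitor, and each p-value reflects just how far these particular libraries scatter, possibly for technical reasons. Results rest on 1 cell line at 1 time.

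MK1775 (adavosertib) is a small molecule that blocks the kinase Wee1. Wee1 phosphorylates the cyclin-dependent kinases Cdk1 and Cdk2 and holds them inactive, which restrains entry into mitosis and limits the firing of replication origins. Cells without this brake can enter mitosis with incompletely copied DNA, and unscheduled origin firing drains the nucleotide supply. Wee1 inhibitors are also known to activate the eIF2-alpha kinase Gcn2 (Eif2ak4), which feeds the integrated stress response, a programme that lowers general translation and induces the transcription factors Atf4, Ddit3 and Atf3.

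The libraries were alike in their totals. Summed FPKM was 321600 to 332900 in NC and 322900 to 325600 with MK1775, and 10017 to 10172 and 10361 to 10415 gene names reached 1 FPKM. FPKM carries no read total, so the depth is unknown. Across genes, which are no replicates of each other, Pearson's r was 0.975 to 0.981 within NC, 0.976 to 0.977 within MK1775 and 0.936 to 0.941 between the groups. Transcripts without a gene name took 10.04% to 11.19% of FPKM in NC and 12.05% to 12.62% with MK1775. Of 8 epithelial markers 5 reached a mean of 1 FPKM, with a summed level of 434 to 497 in NC and 779 to 792 with MK1775, most of it from Krt8 and Krt18. These and Cdh1 were called higher, Krt7 lower and Krt19 was not called, while Epcam, Krt5 and Krt14 did not reach the minimum. Of 12 immune markers 2 reached it and 6 were at 0 throughout (summed level 8.72 to 10.1 and 5.44 to 7.87, most of it Cd68 and Cd14). Of 8 fibroblast and stroma markers 2 reached it (summed level 2.21 to 3.6 and 2.12 to 2.72). These were Pdgfra, not called, and Pdgfrb, called lower (1.44 FPKM in NC and 0.79 with MK1775, log2 -0.447). No endothelial or blood marker reached it.

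MK1775 was followed by a broad change in expression with a skewed shape: more genes fell than rose, but the large changes were mostly rises. With limma on log2(FPKM + 1) and Benjamini-Hochberg adjustment at 0.05, 1791 of 10327 genes were called higher (17.3%) and 2421 called lower (23.4%). By at least 1 on the log2 scale, 280 genes were higher and 115 lower. The median difference of all genes tested was -0.046. Values after ± here and below are SD over 3 libraries. Calls depended on level. Among genes at 1 to 5 FPKM, 17.1% were called higher and 14.6% lower, and among those at 20 to 100 FPKM, 19.9% and 32.6%. A gene absent from NC could enter only through MK1775. Of 327 tested genes with an NC mean under 1 FPKM, 209 were called higher and 0 lower, a result that the minimum level fixes in direction. Rescaling all libraries to a common total gave 2012 higher and 2164 lower genes, a smaller excess of falls. That total covers only named transcripts of genes on 1 chromosome, unlike the totals above, which include unnamed ones. With no minimum level 2999 were higher and 2212 lower.

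**Figure D1:**
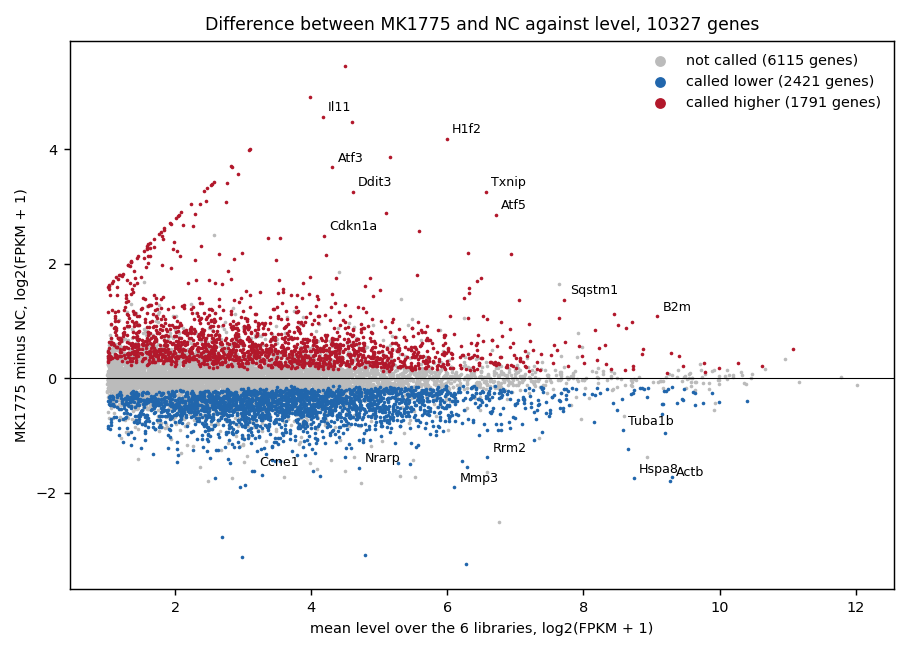
Difference between MK1775 and NC (y axis, log2(FPKM + 1)) against the mean level over the 6 libraries (x axis, same scale) for 10327 genes, with called genes in colour. The straight upper edge at left holds genes near 0 in NC, and the falls of Actb and Hspa8 stand out among abundant genes.

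Named groups of genes differed widely in how many of their members were called. The largest shares of falls against the 23.4% of all genes were in replication genes, cholesterol synthesis, mesenchymal factors, tubulins and nucleotide synthesis. The largest shares of rises against 17.3%, beside groups of genes near 0 in NC, were in glucose-sensing genes, clock genes, the integrated stress response, chemokines and early response genes. Cytosolic ribosomal proteins lay under both backgrounds, with 13.3% in each direction and a median of 0.005 over 60 genes, though the number called higher ran from 3 to 9 when single libraries were left out (3 without MK1775 replicate 1 or 2). These shares are descriptions, and no list was tested as a set. Each count of called members below is to be read beside 17.3% higher and 23.4% lower among all genes.

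**Figure D2:**
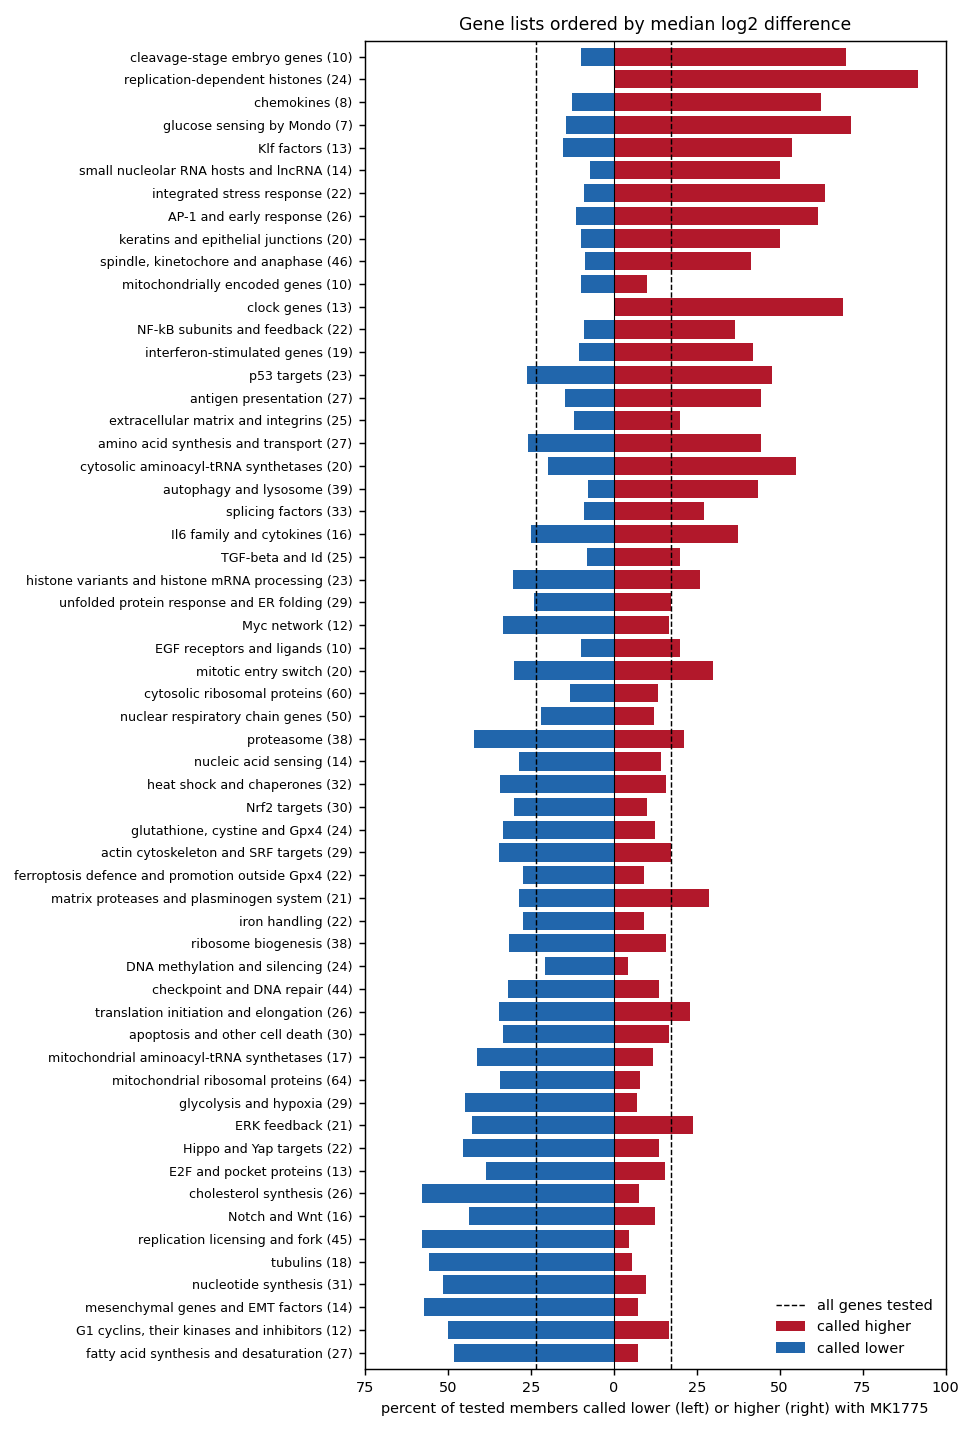
Percent of tested members called higher (right) and called lower (left) with MK1775 for 58 gene lists, ordered by median log2 difference, with the number tested in brackets and dashed lines at 17.3% and 23.4%, the shares of all genes. Lists at the far top and bottom reach well beyond the dashed lines on one side. In the middle some lists stay near both lines and others do not, such as the proteasome with 42.1% called lower.

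Wee1, the target of the inhibitor, rose modestly at the transcript level. Its level was 11.5, 10.5 and 11 FPKM in NC and 14.9, 14.7 and 16.8 with MK1775. Each MK1775 library lay above all of NC, with a mean difference of 0.46 on the log2 scale (SE 0.0784, adjusted p = 0.00229). MK1775 acts on the protein, so the transcript is no check of its action. Across 20 genes of the mitotic entry switch, 6 were called higher and 6 lower with a median of 0.02, so they did not move in one direction. Cyclin B1 (Ccnb1), which activates Cdk1, rose from 76.7 ± 2.22 to 122 ± 1.88 FPKM, and Ensa, an inhibitor of the mitotic phosphatase PP2A once phosphorylated, from 18.2 ± 1.63 to 27.6 ± 1.29 FPKM. Cyclin A2 (Ccna2), which serves S phase and G2, fell from 98.1 ± 6.44 to 76.3 ± 1.81 FPKM. Fbxo5 (Emi1), which restrains the anaphase-promoting complex before mitosis, fell from 14.3 ± 1.48 to 8.65 ± 0.274 FPKM.

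Many genes of the spindle and kinetochore rose. Of 46 tested, 19 were called higher and 4 lower, with a median of 0.39, and their summed level went from 1747 ± 51.1 FPKM to 2319 ± 41.2 (SD, n = 3). With only the most abundant transcript of each gene 11 were called higher. Aurora kinase A (Aurka), which matures centrosomes and builds the spindle, is counted in the mitotic entry list, not among these 46. It was at 36.4, 39.98 and 43.7 FPKM in NC and 136, 114 and 167 with MK1775. The groups did not overlap, and Aurka was 3.47-fold higher, or by 1.43 rather than 1.75 on the log2 scale over its whole locus. Ndc80, the kinetochore protein that grips microtubules, rose from 15.3 ± 2.87 to 42.7 ± 1.97 FPKM. The central spindle bundler Prc1 rose from 50.2 ± 2.42 to 106 ± 8.33 FPKM and the spindle assembly protein Nusap1 from 14.4 ± 1.4 to 35.3 ± 2.04 FPKM. Cenpf, a large kinetochore protein made in G2, went from 5.79 ± 1.59 to 14.8 ± 2.05 FPKM (adjusted p = 0.0134). Members of the same machinery moved the other way. Nuf2, the direct partner of Ndc80 in its complex, fell from 27.9 ± 2.34 to 17.1 ± 1.18 FPKM. Ska1, which couples kinetochores to microtubule ends, fell from 6.44 ± 0.589 to 2.75 ± 0.263 FPKM. Mybl2, an activator of mitotic genes that is counted in the mitotic entry list, fell from 26.8 ± 1.02 to 16.1 ± 1.48 FPKM.

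Promoters of this group share a short element that the rule did not use. The cell cycle homology region is a motif through which the DREAM complex represses mitotic genes outside G2 and M. The letters TTTGAA or TTCGAA on either strand were present in 31 of 39 spindle genes with a window (79.5%), against 16.1% of 7853 tested genes with one. In the mitotic entry list 7 of 14 genes with a window matched (50%). Windows run from 250 bases before to 50 after a RefSeq transcription start (build GRCm38.p6, 19.2% of all 32851 windows match). The promoter of Prc1 is shown because it holds the element close to the start of a gene that rose. These 250 bases end at the start, lie on the plus strand at chr7:80294226-80294475, and carry the match, in capitals here and in the sequences that follow, 30 bases before the start:
Prc1: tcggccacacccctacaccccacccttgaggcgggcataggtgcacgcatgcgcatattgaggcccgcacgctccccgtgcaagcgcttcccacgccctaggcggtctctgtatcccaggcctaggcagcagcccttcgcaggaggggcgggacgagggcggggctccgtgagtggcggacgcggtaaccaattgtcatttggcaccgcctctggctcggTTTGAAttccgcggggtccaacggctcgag
A match is a description of the letters and says nothing on whether a factor bound them here. The windows of Nusap1, which rose, and of Nuf2, which fell, hold none, and that of Fbxo5, of the mitotic entry list, which fell, holds one.

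Several regulators of G1 fell. Of 12 tested cyclins, kinases and inhibitors of G1, 6 were called lower and 2 higher, with a median of -0.38. Cyclin D1 (Ccnd1), which couples growth signals to Cdk4 and Cdk6, was at 340.3, 369 and 368 FPKM in NC and 209, 213 and 207 with MK1775. It fell 1.71-fold without overlap. The other D cyclins fell as well, Ccnd2 from 22.9 ± 0.0658 to 17.4 ± 0.721 FPKM and Ccnd3 from 41.6 ± 4.78 to 26.3 ± 1.46 FPKM. Cyclin E1 (Ccne1), the partner of Cdk2, was at 11.8, 13.3 and 12.4 FPKM in NC and 3.4, 3.92 and 2.83 with MK1775, with every MK1775 value under every NC value. Its relative Ccne2 went from 11.7 ± 0.888 to 5.7 ± 0.362 FPKM with an adjusted p of 0.0587, not called here but called when only the 6 libraries entered the fit. The inhibitor p21 (Cdkn1a) was at 4.37, 4.74 and 4.36 FPKM in NC and 29.8, 30.5 and 29.2 with MK1775, a 6.65-fold rise, and p27 (Cdkn1b) rose from 15.4 ± 0.32 to 19.7 ± 0.343 FPKM, while the Ink4 inhibitor Cdkn2c (p18) fell from 36.9 ± 1.06 to 22.4 ± 0.685 FPKM. Among E2F factors and pocket proteins, the repressors E2f7 and E2f8, themselves made in S phase, fell from 7.33 ± 0.134 to 3.74 ± 0.222 FPKM and from 25.8 ± 1.06 to 15.7 ± 0.155 FPKM. Of the pocket proteins that hold E2F in check, Rb1 rose from 1.45 ± 0.541 to 3.2 ± 0.17 FPKM and Rbl1 from 13.9 ± 0.991 to 21.2 ± 0.374 FPKM.

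Most replication genes fell. Of 45 tested genes of licensing and the fork, 26 were called lower and 2 higher, with a median of -0.33. Pold2, a subunit of the polymerase of the lagging strand, was at 55.5, 62.9 and 59.9 FPKM in NC and 25.7, 26.4 and 27.5 with MK1775, and no value was shared between the groups. The clamp loader subunit Rfc5 fell from 36.4 ± 2.5 to 19.3 ± 0.244 FPKM, the sliding clamp Pcna from 246 ± 7.12 to 166 ± 5.29 FPKM and the licensing factor Cdc6 from 19.5 ± 1.1 to 10.3 ± 2.16 FPKM. The exceptions were Rfc4, another clamp loader subunit, which rose from 21.9 ± 2.2 to 30.7 ± 0.66 FPKM, and the primase subunit Prim1, from 18.4 ± 1.09 to 22.9 ± 1.38 FPKM. Fewer cells in S phase and less of each transcript per cell cannot be told apart in bulk RNA.

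E2F sites mark part of this list. The letters TTTCCCGC or TTTGGCGC on either strand were in 12 of 36 replication genes with a window (33.3%), against 3.96% of tested genes and 1.56% of all windows. The minichromosome maintenance gene Mcm6, a subunit of the replicative helicase that fell from 118 ± 7.47 to 78 ± 2.64 FPKM, is shown because 2 matches stand in the 250 bases before its start, on the minus strand, as written, at chr1:128359706-128359955:
Mcm6: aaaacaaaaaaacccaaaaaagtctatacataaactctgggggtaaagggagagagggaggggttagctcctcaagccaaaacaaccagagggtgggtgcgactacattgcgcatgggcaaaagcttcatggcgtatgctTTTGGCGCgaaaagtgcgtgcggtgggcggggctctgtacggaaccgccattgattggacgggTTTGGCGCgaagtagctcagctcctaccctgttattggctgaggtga
The first matched bases lie 110 and 47 bases before the start. Mcm6 fell by 0.59 on the log2 scale (SE 0.0515, adjusted p = 7.83e-05). Only 2 of 27 nucleotide synthesis genes with a window (7.41%) and 1 of 9 genes of the G1 list (11.1%) had such a match.

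Nucleotide synthesis was split by enzyme. Of 31 tested genes 16 were called lower and 3 higher, with a median of -0.36. Thymidine kinase 1 (Tk1), which salvages thymidine, was at 100.4, 119.5 and 102 FPKM in NC and 42, 32.1 and 42.4 with MK1775. The small subunit of ribonucleotide reductase (Rrm2), which makes deoxynucleotides, was at 137, 139 and 136 FPKM in NC and 52.2, 52.8 and 50.8 with MK1775. For both genes the MK1775 values lay far under the NC range. Deoxycytidine kinase (Dck) fell from 17.5 ± 1.29 to 7.75 ± 0.274 FPKM. The folate enzymes of cytosol and mitochondria moved apart: Mthfd1, the cytosolic trifunctional enzyme, fell 2.31-fold from 64.9 ± 4.15 to 28.2 ± 0.514 FPKM, while the mitochondrial enzymes Mthfd2 and Shmt2, the former a known Atf4 target, rose from 37.3 ± 2.54 to 51.4 ± 1.66 FPKM and from 97.1 ± 7.49 to 142 ± 8.16 FPKM. Rrm2b, the p53-induced small subunit, rose from 3.36 ± 0.72 to 5.52 ± 0.513 FPKM with an adjusted p of 0.0139, and was not called without MK1775 replicate 1 (0.53).

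Genes known as p53 targets did not move together, and whether p53 acts in these cells was not tested. Of 23 tested genes 11 were called higher (47.8%, against 17.3% of all genes) and 6 lower (26.1%, against 23.4%). An NC mean under 1 FPKM was seen in 2 of the 23, Trp53inp1 among them, which passed only through MK1775. With a minimum of 5 FPKM 5 were higher. Besides Cdkn1a, the kinase Plk2 rose from 12.4 ± 0.485 to 44 ± 0.585 FPKM. The growth arrest gene Gadd45a rose from 2.98 ± 0.379 to 6.96 ± 0.408 FPKM and Trp53inp1, which aids p53 and autophagy, from 0.172 ± 0.0585 to 2.23 ± 0.326 FPKM. Phlda3, which restrains Akt, fell from 11.3 ± 0.774 to 6.87 ± 0.352 FPKM, and Sesn1, a sestrin that restrains mTORC1, from 3.19 ± 0.313 to 1.65 ± 0.287 FPKM. Cyclin G1 (Ccng1) fell from 10 ± 1.51 to 7.46 ± 0.257 FPKM, a call that ended when any 1 of 4 libraries was left out (NC replicate 1 or 3, MK1775 replicate 2 or 3, values -0.37 to -0.28). The count of falls dropped from 6 to 3 without MK1775 replicate 2 or 3 or NC replicate 3.

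Histone genes of the replication-dependent kind were seen in MK1775 libraries at levels far above NC. These genes are made in S phase, in many near-identical copies, and their transcripts normally carry no poly(A) tail. Of 54 listed genes 24 passed the minimum level, 21 of them with an NC mean under 1 FPKM, so the count called higher says little. Summed over all 54, tested or not, their level was 20.3 ± 2.77 FPKM in NC and 350.3 ± 21.3 with MK1775 (SD, n = 3). The linker histone H1f2, the most abundant of those named, was at 5.47, 6.49 and 4.91 FPKM in NC and 112, 115 and 130.4 with MK1775. H2bc4 was at 1.11, 1.19 and 0.862 FPKM in NC and 37, 48 and 50.7 with MK1775. No NC library came near the MK1775 values. H3c2, at 0.197, 0.12 and 0.194 FPKM in NC and 10.8, 11.4 and 12 with MK1775, and H4c9, at 2.72, 4.59 and 3.54 FPKM in NC and 66, 65.8 and 65.1 with MK1775, had the same order. Since copies share reads, the value of any one gene is uncertain. The octamer ATTTGCAT, known from H2A and H2B promoters, was on either strand in 6 of 22 tested histone genes with a window (27.3%), against 1.57% of all tested genes and 1.74% of all windows. Replication-independent histone genes and H2ax moved less. The linker histone H1f0, linked to arrested and differentiated cells, rose 2.19-fold from 219 ± 10.5 to 480.5 ± 8.52 FPKM, and the replacement histone H3f3b from 271 ± 15.4 to 513 ± 124 FPKM. H2aj, linked to senescence, rose from 10.1 ± 1.75 to 22.3 ± 1.02 FPKM and H2ax, which marks DNA breaks when phosphorylated, from 85.1 ± 4.79 to 155 ± 12.8 FPKM, while H2az1 fell from 397 ± 24.9 to 295 ± 11.9 FPKM.

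Genes of the cleavage-stage embryo, known from the time of zygotic genome activation, were in part seen almost only in MK1775 libraries. Of 32 listed, 10 passed the minimum level, 7 called higher and 1 lower, and 9 had an NC mean under 1 FPKM, so that they passed only through MK1775. The other tested member, Kdm4dl, a copy of a histone demethylase gene, went the other way. It was at 7.83, 5.11 and 18 FPKM in NC and 0.102, 0.957 and 0.504 with MK1775 (log2 -2.77, adjusted p = 0.0125), and at -0.85 over its locus, which holds 4 gene names. Summed over all 32, the level was 12.4 ± 6.89 FPKM in NC and 100.3 ± 10.6 with MK1775 (SD, n = 3), and Kdm4dl made up most of the NC sum. Zfp352, a zinc finger gene of the early embryo, was listed at 0 in all NC libraries and at 10.6, 9.51 and 8.4 FPKM with MK1775. Tcstv3 was also listed at 0 in NC and stood at 10.8, 9.24 and 8.7 with MK1775, and Tcstv1 was at 0.024, 0 and 0 FPKM in NC and 15.6, 16.1 and 13.3 with MK1775. The deubiquitinase copy Usp17lb was at 0, 0.0354 and 0 FPKM in NC and 6.48, 6.5 and 5.25 with MK1775. The initiation factor copy Eif4a3l1 was at 0, 0.0363 and 0 FPKM in NC and 32.9, 28.2 and 27.5 with MK1775 (log2 4.91, SE 0.0723). Pramel20 and Eif1ad8 were listed at 0 in NC and reached 12.1 ± 0.757 and 8.69 ± 0.817 FPKM. Most of these belong to multicopy families, and which copy gave the reads is uncertain.

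Most genes of the integrated stress response rose. Of 28 listed genes 22 were tested, 14 were called higher and 2 lower, with a median of 0.48, and the summed level of the list went from 395 ± 21.5 to 832 ± 15.2 FPKM. At its centre, Atf4 rose 1.94-fold, from 99.8 ± 5.73 to 194 ± 5.88 FPKM. Most of its partners and targets named here rose further. Ddit3 (CHOP), which turns prolonged stress toward cell death, was at 3.23, 4.04 and 3.56 FPKM in NC and 44.7, 41.1 and 43.6 with MK1775. Atf5, a related factor under the same translational control, was at 23.9, 26.6 and 22.9 FPKM in NC and 177, 183 and 189 with MK1775. Atf3 was at 1.92, 2 and 1.67 FPKM in NC and 36.2, 35.7 and 35.3 with MK1775, a 19.2-fold difference. All 3 MK1775 libraries stood close together for these genes and far from NC. Nupr1, a small chromatin protein of stressed cells, was at 7.46, 6.46 and 7.5 FPKM in NC and 60.9, 59.8 and 57.4 with MK1775. Ppp1r15a (Gadd34), which brings a phosphatase back to eIF2-alpha, was at 3.57, 3.3 and 3.14 FPKM in NC and 16.6, 17.1 and 17.4 with MK1775, and the Akt-binding pseudokinase Trib3 at 9.75, 9.56 and 9.18 FPKM in NC and 28, 26.3 and 29.7 with MK1775. Cebpg, which pairs with Atf4, rose from 7.63 ± 1.04 to 15.2 ± 2.21 FPKM. Eif2ak4 (Gcn2), the kinase that senses uncharged tRNA, fell from 6.31 ± 0.474 to 4.13 ± 0.00395 FPKM. Under each of the 24 other settings run, the 8 genes named here from Atf4 to Cebpg, and Eif2ak4, kept their call and direction.

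The C/EBP-ATF response element, where Atf4 and its partners bind, is found in several of these promoters. The letters TGATGNAAN on either strand were in 5 of 21 genes of the stress response list with a window (23.8%) and in 4 of 20 amino acid genes (20%), against 2.33% of tested genes and 3.95% of all windows. The 3 promoters below are shown because their genes rose and their match lies in the 250 bases before the start. Matches are in capitals, and each sequence is written on its gene's strand, the minus strand, at chr7:126625471-126625720 (Nupr1), chr1:191183334-191183583 (Atf3) and chr6:7693210-7693459 (Asns):
Nupr1: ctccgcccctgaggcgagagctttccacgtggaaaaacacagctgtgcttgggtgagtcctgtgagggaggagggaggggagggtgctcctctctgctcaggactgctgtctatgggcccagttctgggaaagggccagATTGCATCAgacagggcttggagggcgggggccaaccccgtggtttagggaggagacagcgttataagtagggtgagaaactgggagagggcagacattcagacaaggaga
Atf3: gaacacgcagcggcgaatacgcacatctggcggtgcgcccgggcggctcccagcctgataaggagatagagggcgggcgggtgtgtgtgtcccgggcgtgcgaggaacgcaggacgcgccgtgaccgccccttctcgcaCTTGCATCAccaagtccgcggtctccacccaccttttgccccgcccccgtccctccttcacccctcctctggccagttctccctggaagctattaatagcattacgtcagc
Asns: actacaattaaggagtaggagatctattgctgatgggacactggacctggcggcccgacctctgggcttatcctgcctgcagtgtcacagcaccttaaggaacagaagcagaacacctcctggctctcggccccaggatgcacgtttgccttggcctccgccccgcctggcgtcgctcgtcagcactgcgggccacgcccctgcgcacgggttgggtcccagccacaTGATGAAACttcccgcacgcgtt
The first matched base lies 111 bases before the start in both Nupr1 and Atf3, and 23 in Asns. Ddit3 has no match in its window, which says only that these letters are not in those 300 bases.

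Several amino acid genes rose, but not the whole list. Of 27 tested genes 12 were called higher and 7 lower, with a median of 0.21. An NC mean under 1 FPKM was seen in 2 of the 27, Aldh1l2 among them, which passed only through MK1775. Asparagine synthetase (Asns) was at 53.4, 64.6 and 57.2 FPKM in NC and 124, 127 and 123 with MK1775. The neutral amino acid transporter Slc1a4 was at 5.9, 6.02 and 5.81 FPKM in NC and 17.3, 18.1 and 18.6 with MK1775, 3.05-fold higher. In each the lowest MK1775 value was above the highest NC value. Aldh18a1, which starts proline synthesis, rose from 18.1 ± 0.95 to 34 ± 0.287 FPKM, the alanine transaminase Gpt2 from 4.45 ± 0.293 to 10.2 ± 0.545 FPKM and the mitochondrial folate enzyme Aldh1l2 from 0.436 ± 0.0633 to 2.3 ± 0.147 FPKM. The glutamine transporter Slc1a5 fell from 56.7 ± 2.69 to 38.5 ± 1.47 FPKM and the branched-chain transaminase Bcat2 from 12.7 ± 0.238 to 8.82 ± 0.743 FPKM.

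Synthetases that load amino acids onto tRNA changed in both directions in the cytosolic and the mitochondrial list. Of 20 cytosolic genes 11 were called higher and 4 lower, with a median of 0.197, and of 17 mitochondrial genes 2 were called higher and 7 lower, with a median of -0.16. The difference between the 2 lists was not tested. With the most abundant transcript of each gene, 7 cytosolic genes were higher and the median was -0.006. Nars, for asparagine, rose from 83 ± 1.14 to 139 ± 2 FPKM, and was not called with its most abundant transcript alone (0.31). Sars, for serine, rose from 49.7 ± 4.77 to 85.5 ± 1.68 FPKM, Yars, for tyrosine, from 26.7 ± 2.02 to 49.5 ± 0.874 FPKM and Tars, for threonine, from 39.3 ± 0.891 to 63.3 ± 0.957 FPKM. Among the 4 cytosolic genes called lower, Cars was at -1.212 on the log2 scale and -0.409 over its whole locus. Dars was at -0.338 and -0.325. Of the mitochondrial genes, Aars2, for alanine, fell from 6.23 ± 0.213 to 3.52 ± 0.123 FPKM. Lars2, for leucine, went from 35.4 ± 10.5 to 17.3 ± 2.47 FPKM, a call that 7 of 24 other settings ended, among them leaving out NC replicate 1 (-0.79) or 2 (-0.87) or MK1775 replicate 1 (-0.91) or 2 (-0.89). Iars2, for isoleucine, and Sars2, for serine, rose from 20.4 ± 1.21 to 27.3 ± 2.48 FPKM and from 4.09 ± 0.635 to 5.62 ± 0.371 FPKM.

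**Figure D3:**
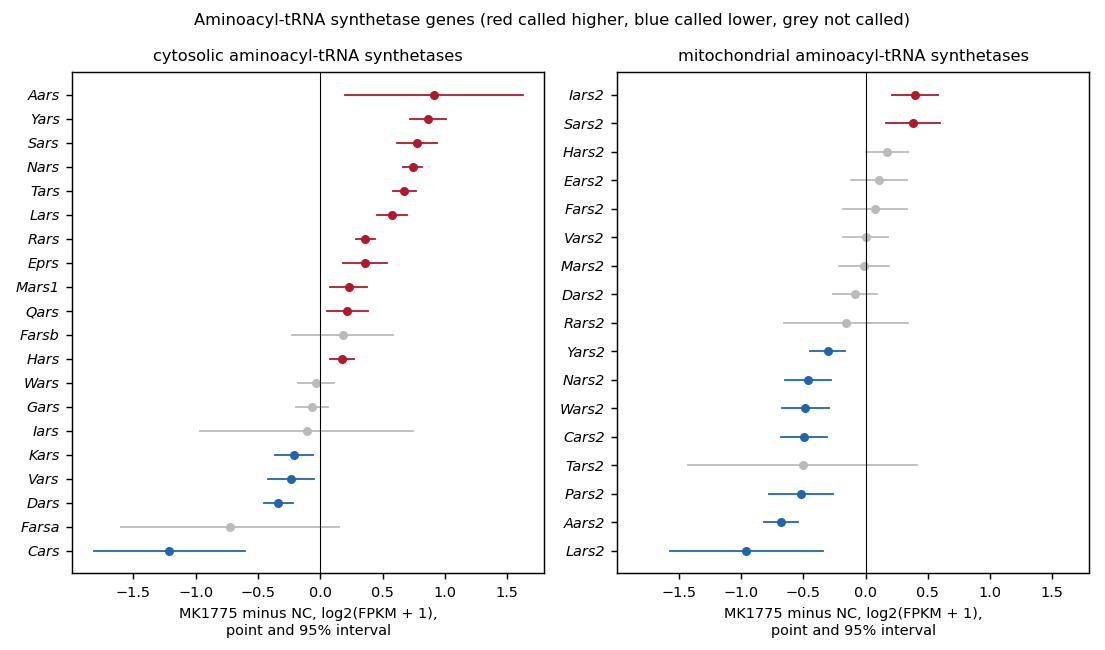
Difference between MK1775 and NC for each aminoacyl-tRNA synthetase gene on the log2(FPKM + 1) scale (x axis), with 95% intervals, for 20 cytosolic (left) and 17 mitochondrial (right) genes. In red, 11 cytosolic and 2 mitochondrial points lie right of 0. In blue, 4 cytosolic and 7 mitochondrial points lie left of it. Intervals are long for Aars, Cars and Lars2.

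Txnip and other genes of sugar sensing rose. Txnip, an arrestin that limits glucose uptake and binds thioredoxin, is induced through the MondoA and ChREBP factors. Its span in GRCm39 is chr3:96465273-96469199 (plus strand), and its level was 16.1, 17.4 and 17.1 FPKM in NC and 168, 172 and 172 with MK1775. This is a 10.1-fold rise (log2 3.26, SE 0.0473, 95% interval 3.15 to 3.37, adjusted p = 8.8e-09), and the spread within each group is small beside it. Its relative Arrdc4, also a MondoA target, was at 0.782, 0.611 and 0.414 FPKM in NC and 2.47, 2.94 and 2.4 with MK1775. Arrdc3, an arrestin that guides receptor turnover, went from 2.31 ± 0.642 to 4.98 ± 0.832 FPKM (adjusted p = 0.0113). Of 7 tested genes of this list 5 were called higher and 1 lower. One of them, Arrdc4, passed only through MK1775, and with a minimum of 5 FPKM 1 was called higher. Glycolysis and hypoxia genes, 29 tested, had 13 falls and 2 rises. The 2 rises were Vegfa, the angiogenic factor, from 3.31 ± 0.371 to 8.78 ± 0.793 FPKM, and the hypoxia-induced Ndrg1, from 30.4 ± 2.2 to 56.5 ± 0.808 FPKM.

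Most tested clock genes rose and none was called lower. Of 19 listed, 13 were tested and 9 called higher, with a median of 0.34 and a summed level of 50.1 ± 2.12 FPKM in NC and 89.95 ± 1.31 with MK1775 (SD, n = 3). Nr1d1 (Rev-erb alpha), the repressor that closes the second loop of the clock, was at 1.75, 1.99 and 1.76 FPKM in NC and 11.4, 11.8 and 12.4 with MK1775. Ciart, a repressor of Clock and Bmal1, was at 1.35, 2.6 and 1.88 FPKM in NC and 9.38, 10.8 and 8.95 with MK1775, and Per1 at 2.24, 2.99 and 1.98 FPKM in NC and 6.78, 6.93 and 6.78 with MK1775. None of these overlapped with NC, with NC values more scattered for Ciart than for Nr1d1. Nr1d2 (Rev-erb beta) rose from 7.28 ± 2.25 to 15.6 ± 0.238 FPKM. Clock and Bmal1 bind the E-box CACGTG, a palindrome. It was in 4 of 10 tested clock genes with a window, among them Ciart and Per1, and in 2 of 7 genes of the sugar sensing list. It was in 12.5% of all tested genes and in 7.15% of all windows. The Ciart promoter is shown because it holds 3 of them, and that of Arrdc4 because MondoA acts through the same letters. Both are on the minus strand, at chr3:95882229-95882478 and chr7:68749239-68749488:
Ciart: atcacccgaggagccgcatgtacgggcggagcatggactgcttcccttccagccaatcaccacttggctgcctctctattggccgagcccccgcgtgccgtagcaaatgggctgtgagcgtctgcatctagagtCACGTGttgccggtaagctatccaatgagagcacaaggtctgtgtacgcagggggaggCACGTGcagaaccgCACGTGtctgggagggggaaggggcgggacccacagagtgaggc
Arrdc4: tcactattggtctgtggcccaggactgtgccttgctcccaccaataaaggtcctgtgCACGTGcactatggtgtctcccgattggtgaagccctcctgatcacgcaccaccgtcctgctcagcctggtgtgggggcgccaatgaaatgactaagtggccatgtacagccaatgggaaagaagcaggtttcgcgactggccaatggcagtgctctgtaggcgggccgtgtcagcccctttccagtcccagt
The matches in Ciart begin 116, 58 and 44 bases before the start, and that in Arrdc4 193 bases before it. Txnip and Nr1d1 have no CACGTG in their windows.

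Many early response factors rose, while feedback genes of the ERK pathway moved both ways. Of 26 tested early response genes 16 were called higher and 3 lower, with a median of 0.45, and 5 of the 26, Fos and Egr2 among them, had an NC mean under 1 FPKM and passed only through MK1775. The AP-1 subunit Junb was at 19.3, 21.1 and 19.7 FPKM in NC and 67.4, 74.5 and 75.1 with MK1775, and the zinc finger factor Egr1 at 2.69, 2.61 and 2.53 FPKM in NC and 18, 19.3 and 18.6 with MK1775. Both groups of values are tight and far apart. Fos rose from 0.597 ± 0.211 to 5.03 ± 0.341 FPKM, Egr2 from 0.0998 ± 0.0123 to 2.32 ± 0.131 FPKM and the small Maf factor Maff from 18.6 ± 0.755 to 39 ± 1.6 FPKM, while Ier5l fell from 16.4 ± 1.99 to 7.38 ± 0.929 FPKM. Egr and Fos genes are classic outputs of the ERK kinases, and the next list holds genes that ERK induces to limit itself. Of 21 tested 9 were called lower (42.9%, against 23.4% of all genes) and 5 higher (23.8%, against 17.3%). An NC mean under 1 FPKM was seen in 2 of the 21, which passed only through MK1775. The phosphatase Dusp6, which inactivates ERK, was at 36, 40.04 and 39.5 FPKM in NC and 16.9, 19 and 17.3 with MK1775. Sprouty 1 (Spry1), an inhibitor of growth factor receptors, was at 9.87, 9.2 and 8.81 FPKM in NC and 2.11, 2.56 and 3.42 with MK1775. Neither gene had an MK1775 value inside the NC range. Dusp16, a phosphatase for Jnk and p38, rose from 4.53 ± 0.339 to 10.02 ± 0.542 FPKM.

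**Figure D4:**
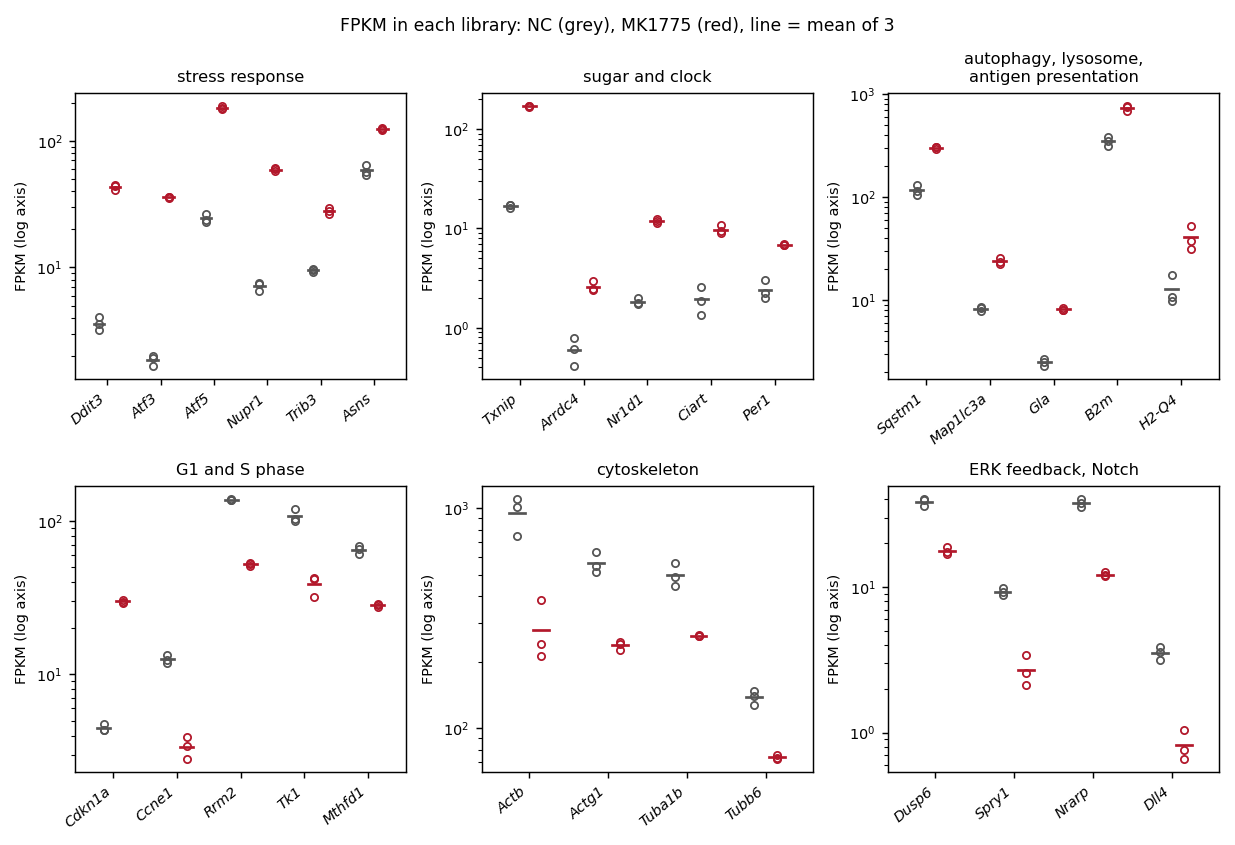
FPKM on a log axis for 29 genes in each of the 3 NC (grey) and 3 MK1775 (red) libraries, with the mean as a line. In every gene drawn the 3 MK1775 values lie wholly on one side of the 3 NC values. All genes drawn are called genes, for which such separation largely follows from the call, so it adds no support.

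Krüppel-like factors, which act on growth arrest and epithelial fate, rose in 7 of 13 tested, with 2 falls and a median of 0.51. An NC mean under 1 FPKM was seen in 2 of the 13, Klf11 among them, which passed only through MK1775. Klf10, an early TGF-beta response gene, was at 8.12, 8.72 and 8.36 FPKM in NC and 30.5, 31.6 and 29.6 with MK1775, 3.64-fold higher. Klf6 was at 16.5, 14.1 and 15.9 FPKM in NC and 47.1, 48.3 and 45.9 with MK1775 and was higher in each treated library. Klf5, a factor of proliferating epithelium, rose from 12.2 ± 0.134 to 28.4 ± 1.31 FPKM and Klf11 from 0.789 ± 0.233 to 3.26 ± 0.34 FPKM. In the TGF-beta and Id list, 5 of 25 tested genes rose and 2 fell, close to the background for rises. Those that rose included the ligand Tgfb2, from 0.926 ± 0.0967 to 4.13 ± 0.214 FPKM, and 2 brakes on the pathway, the inhibitory Smad7 at 3.02, 2.93 and 3.23 FPKM in NC and 9.16, 9.43 and 10.03 with MK1775 and Skil (SnoN) at 2.72, 1.84 and 2.3 FPKM in NC and 9.88, 9.75 and 9.8 with MK1775. In the Myc network Myc itself rose from 52.8 ± 4.27 to 74 ± 4.52 FPKM, Mxd1, an antagonist of Myc, from 0.576 ± 0.0956 to 2.39 ± 0.0647 FPKM, and Mxd3 fell from 10.7 ± 1.06 to 4.86 ± 0.695 FPKM. Mxd1 and Tgfb2 also passed the minimum level only through MK1775.

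Many lysosome and autophagy genes rose. Of 39 tested, 17 were called higher and 3 lower, and the summed level went from 1040 ± 88.3 to 1492 ± 128 FPKM. The autophagy receptor p62 (Sqstm1), which links ubiquitinated cargo to the autophagosome, was at 105, 130.1 and 114 FPKM in NC and 309, 292 and 309 with MK1775 (log2 1.38, adjusted p = 0.00365), and with its most abundant transcript alone it was not called (1.04). A second receptor, Nbr1, rose from 13.6 ± 0.804 to 27.1 ± 5.04 FPKM. Map1lc3a, one of the Atg8 proteins that coat autophagosomes, was at 7.73, 8.54 and 8.28 FPKM in NC and 22.6, 25.5 and 23.3 with MK1775. The lysosomal galactosidase Gla was at 2.28, 2.47 and 2.63 FPKM in NC and 7.99, 8.35 and 7.89 with MK1775, and the subunit Atp6v0d1 of the proton pump at 7.73, 10.01 and 8.49 FPKM in NC and 19.2, 19.8 and 19.3 with MK1775. For these the MK1775 libraries lay within a narrow band above NC. Tfe3, a factor that induces lysosomal genes, fell from 10.2 ± 0.503 to 6.46 ± 0.87 FPKM, and was not called with its most abundant transcript (-0.05).

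Many antigen presentation genes rose, with an exception in the immunoproteasome. Of 27 tested 12 were called higher and 4 lower, and the summed level went from 1299 ± 37.2 to 1838 ± 80.3 FPKM. The class I light chain beta-2 microglobulin (B2m) was at 382, 313 and 349 FPKM in NC and 747, 774 and 690.5 with MK1775, 2.12-fold higher. The peptide pump Tap1 was at 3.49, 3.43 and 3.49 FPKM in NC and 8.49, 9.15 and 8.45 with MK1775. The class Ib genes H2-Q4 and H2-Q6 rose from 12.6 ± 4.13 to 40.5 ± 11 FPKM and from 5.74 ± 0.329 to 29.5 ± 6.07 FPKM, but they sit in an assembled locus with 8 gene names, and over that whole locus the difference was 1.49. Psmb9, an immunoproteasome subunit, rose from 2.4 ± 0.379 to 4.9 ± 0.105 FPKM, and another, Psmb10, fell from 11.4 ± 1.57 to 7.11 ± 0.339 FPKM. Of 22 tested NF-kB subunits and feedback genes 8 were called higher and 2 lower. An NC mean under 1 FPKM was seen in 1 of the 22, which passed only through MK1775. The subunits Rela, Nfkb2 and Relb rose, Rela at 19.8, 21.3 and 20.7 FPKM in NC and 40.8, 42.6 and 43.2 with MK1775, Nfkb2 from 30.8 ± 1.72 to 61.8 ± 1.98 FPKM and Relb from 9.13 ± 0.212 to 18.4 ± 0.734 FPKM. Nfkb1, which encodes p105, went from 17.8 ± 2.48 to 12.8 ± 2.05 FPKM, and 10 of 24 other settings ended that call, leaving out NC replicate 1 (-0.38) or 3 (-0.41) or MK1775 replicate 2 (-0.44) or 3 (-0.35) among them.

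Secreted factors differed by gene. Il11, a cytokine of the Il6 family, spans chr7:4775372-4785858 (minus strand) in GRCm39, and its level was 0.32, 0.53 and 0.504 FPKM in NC and 32.8, 34 and 33.8 with MK1775. It passed the minimum level only through MK1775, and it was 74.2-fold higher. Il6st (gp130), the receptor chain it signals through, rose from 15.8 ± 0.295 to 28.1 ± 0.753 FPKM, and Il23a from 2.18 ± 0.137 to 5.5 ± 0.318 FPKM. Tslp, an epithelial cytokine, fell from 17.2 ± 4.46 to 7.81 ± 0.873 FPKM and the macrophage growth factor Csf1 from 44.8 ± 4.42 to 26.6 ± 0.417 FPKM. Of 8 tested chemokines 5 were called higher and 1 lower. An NC mean under 1 FPKM was seen in 1 of the 8, which passed only through MK1775. Cxcl16 was at 3.08, 2.82 and 3.96 FPKM in NC and 9.64, 10.7 and 10.6 with MK1775. Ccl25 rose from 1.19 ± 0.296 to 5.92 ± 1.14 FPKM and Cxcl1, which draws neutrophils, from 8.34 ± 0.658 to 17.5 ± 2.43 FPKM, while Cx3cl1 (fractalkine) fell from 21 ± 0.607 to 11.3 ± 0.955 FPKM. Of the immune markers, Cd68 was lower (log2 -0.54), while Itgam was listed at 0 in NC and at 0.167, 0.421 and 0.242 FPKM with MK1775, and the part of such markers in these results was not tested.

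Abundant tubulin and actin transcripts fell. Of 18 tested tubulins 10 were called lower and 1 higher, with a median of -0.33, and their summed level went from 2149 ± 184 to 1452 ± 8.63 FPKM. Tuba1b, an abundant alpha tubulin, was at 446, 564 and 489 FPKM in NC and 263, 263 and 265 with MK1775 and the beta tubulin Tubb6 at 128, 148 and 140.5 FPKM in NC and 73.2, 72.7 and 75.3 with MK1775. Both were lower in every MK1775 library. Tubb4b fell from 429 ± 33.2 to 292 ± 3.39 FPKM, and the exception, Tubb2a, went from 10.6 ± 0.928 to 13.1 ± 0.633 FPKM, not called without MK1775 replicate 3 (0.24). Of 29 tested genes of the actin cytoskeleton 10 were called lower (34.5%, against 23.4% of all genes) and 5 higher (17.2%, against 17.3%), with a median of -0.10. One of the 10, Fhl2, was higher over its whole locus. An NC mean under 1 FPKM was seen in 2 of the 29, which passed only through MK1775. The summed level, in which Actb and Actg1 carry most of the fall, went from 4295 ± 401 to 2985 ± 87.8 FPKM. Beta actin (Actb) was at 750.3, 1107 and 1013 FPKM in NC and 240.4, 384 and 213 with MK1775, and over its whole locus, with 2 gene names, it fell by 1.44 instead of 1.80. Gamma actin (Actg1) was at 514, 633 and 545 FPKM in NC and 226, 242 and 246 with MK1775. The highest MK1775 value of each stayed well under the lowest of NC. Wdr1, which helps take filaments apart, fell from 79.3 ± 3.57 to 41.5 ± 1.27 FPKM, and Zyx, at focal adhesions, from 43 ± 4.86 to 25.3 ± 7.56 FPKM, a call lost without NC replicate 2 (-0.70) or 3 (-0.80).

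The CArG box, the site of serum response factor, was in 7 of 25 tested actin and SRF genes with a window (28%). It was in 2 of 21 early response genes (9.52%), in 1.49% of all tested genes and in 1.63% of all windows. The promoter of Actg1 is shown because Actg1 is among the abundant genes that fell. It lies on the minus strand at chr11:120348496-120348745, with the match 90 bases before the start:
Actg1: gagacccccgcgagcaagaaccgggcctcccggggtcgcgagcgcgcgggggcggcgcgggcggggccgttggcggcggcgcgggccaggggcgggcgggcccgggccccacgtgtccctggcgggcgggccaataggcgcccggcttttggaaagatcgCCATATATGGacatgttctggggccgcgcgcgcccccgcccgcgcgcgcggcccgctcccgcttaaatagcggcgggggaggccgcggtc

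Many junction genes rose and most mesenchymal genes fell. Of 20 tested keratins and junction genes 10 were called higher and 2 lower, and of 14 tested mesenchymal genes 8 were called lower and 1 higher. The desmosomal plakophilin Pkp3 was at 3.52, 8.14 and 7.7 FPKM in NC and 21.9, 22.9 and 24.6 with MK1775, with values above NC in all libraries. Keratin 80 (Krt80) rose from 7.53 ± 0.58 to 14.7 ± 0.681 FPKM. The transcription factor Twist1, which drives the mesenchymal state, was at 19.4, 20.4 and 19.4 FPKM in NC and 8.15, 9.62 and 8.78 with MK1775. Foxc2, of the same kind, fell from 6.25 ± 0.245 to 2.89 ± 0.302 FPKM. Among proteases, stromelysin Mmp3 was at 99.4, 108 and 113 FPKM in NC and 26.6, 28 and 29 with MK1775 and the urokinase Plau at 59.5, 62 and 68.5 FPKM in NC and 21.2, 22 and 22.3 with MK1775, while the gelatinase Mmp9 rose from 30.8 ± 2.2 to 44.3 ± 1.67 FPKM. That list as a whole had 6 rises and 6 falls of 21 (28.6% each, against 17.3% and 23.4% of all genes), with 3 falls left without NC replicate 2 or 3. Keratins 8 and 18 among the epithelial markers moved with the junction genes, while Krt7 was lower, from 24.4 ± 4.03 to 13.9 ± 2.48 FPKM (log2 -0.77, a call lost without NC replicate 3, -0.65, or MK1775 replicate 3, -0.64), and the part of these markers in the result was not tested.

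Notch and Wnt genes fell in 7 of 16 tested (43.8%, against 23.4% of all genes), with 2 rises (12.5%, against 17.3%). Nrarp, a direct Notch target and feedback inhibitor, was at 35.7, 40.5 and 37.8 FPKM in NC and 11.9, 12.6 and 12 with MK1775. The ligand Dll4 was at 3.16, 3.58 and 3.87 FPKM in NC and 0.661, 0.762 and 1.04 with MK1775, and the Notch target Hes1 fell from 6.43 ± 0.242 to 3.85 ± 0.525 FPKM. All 3 were called lower, Nrarp by 3.12-fold (adjusted p = 6.83e-07) and Dll4 by 4.31-fold (adjusted p = 5.44e-05).

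Genes of lipid synthesis mostly fell or were not called. Of 26 tested cholesterol genes 15 were called lower and 2 higher, and of 27 genes of fatty acid synthesis and desaturation 13 were called lower and 2 higher, with medians of -0.31 and -0.40. Srebf1, the factor that drives fatty acid genes, went from 20.9 ± 0.808 to 10.3 ± 1.22 FPKM. Stearoyl-CoA desaturase 2 (Scd2), which makes monounsaturated fatty acids, was at 94.3, 131 and 123 FPKM in NC and 41.2, 43.1 and 31.9 with MK1775. Desaturase Fads2 was at 29.7, 33.8 and 31.2 FPKM in NC and 11, 12.1 and 11.6 with MK1775. Cpt1a, the gate of fatty acid oxidation, rose from 5.13 ± 0.569 to 8.63 ± 0.106 FPKM. Ferroptosis is named in the title of the study. Among 24 tested genes of glutathione, cystine and Gpx4, 3 were called higher (12.5%, against 17.3% of all genes) and 8 lower (33.3%, against 23.4%). Among genes of ferroptosis defence and promotion outside Gpx4, 2 of 22 tested rose (9.09%) and 6 fell (27.3%). Among 22 of iron handling 2 rose and 6 fell, the same shares. Gch1, which starts tetrahydrobiopterin synthesis, rose from 1.27 ± 0.139 to 3.82 ± 0.0754 FPKM and the phospholipid acyltransferase Mboat1 fell from 3.52 ± 0.308 to 1.67 ± 0.0584 FPKM. Ncoa4, the receptor that sends ferritin to the lysosome, rose from 17.3 ± 1.82 to 29.9 ± 2.36 FPKM.

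Cell death genes were called lower at 33.3% (10 of 30 tested) and higher at 16.7% (5), beside 23.4% and 17.3% of all genes. The executioner caspase Casp6 was at 11.6, 10.7 and 12.3 FPKM in NC and 5.43, 5.37 and 4.79 with MK1775, lower in all MK1775 libraries. Bok, a Bcl2 relative that permeabilizes mitochondria, fell from 31.4 ± 1.95 to 13.5 ± 0.612 FPKM. Birc2 (cIAP1), an inhibitor of caspase activation, rose from 1.94 ± 0.231 to 6.35 ± 0.481 FPKM, and Diablo, which antagonises such inhibitors, from 11.3 ± 0.791 to 19.5 ± 2.41 FPKM.

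Translation and RNA genes moved in both directions. Of 26 tested genes of translation initiation and elongation 6 were called higher (23.1%, against 17.3% of all genes) and 9 lower (34.6%, against 23.4%). In the list of small nucleolar RNA hosts and other long noncoding RNAs, 7 of 14 tested were called higher (50%) and 1 lower (7.14%), with a median of 0.486. The start codon factor Eif1 was at 270.1, 294 and 281 FPKM in NC and 553, 559 and 567 with MK1775 and the helicase Eif4a1 at 742, 801 and 781 FPKM in NC and 397, 407 and 395 with MK1775, one rising and one falling by about 1 on the log2 scale. Pdcd4, an inhibitor of Eif4a1, rose from 1.44 ± 0.436 to 3.44 ± 0.688 FPKM. Host transcripts of small nucleolar RNA, which are degraded when they are translated, rose in 3 named cases: Snhg1 at 43.2, 33.7 and 42.7 FPKM in NC and 134, 126 and 133 with MK1775, Snhg12 from 12.2 ± 1.12 to 30.8 ± 1.5 FPKM, and Gas5 from 74 ± 13.8 to 145 ± 4.37 FPKM, whose call 5 single libraries ended when left out (NC replicate 2 or 3, or any MK1775 library, 0.83 to 1.02). Snhg3 fell from 27.7 ± 4.32 to 18.8 ± 2.4 FPKM. These loci hold 4 to 10 gene names each, since the small RNAs lie in the introns. The nuclear transcript Malat1 went from 5.39 ± 2.18 to 16.7 ± 1.96 FPKM. Ribosomal RNA listed as Rn18s went from 981 ± 402 to 279.8 ± 50.7 FPKM and moved with the groups, and its part in other results was not tested. Of 33 splicing factors 9 rose (27.3%, against 17.3% of all genes) and 3 fell (9.09%, against 23.4%). Sf3a1 rose from 29.9 ± 1.28 to 50.2 ± 1.25 FPKM and Hnrnpl fell from 154 ± 5.01 to 95.2 ± 1.26 FPKM.

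Some of the largest falls rest on which transcripts carry a gene name. The assembly gave transcripts without a name, which the rule leaves out. Over whole loci, 4160 of the 4212 called genes kept their sign and 52 turned. The 20 largest falls named by rule leave out predicted gene names (Gm or LOC with a number, or ending in Rik) and genes under 5 FPKM in the higher group. Among them, the named transcripts of Fhl2 fell by 3.12, and its locus was at 0.85. Mpc2 turned from -1.63 to 0.20. Leo1 went from -1.91 (adjusted p = 0.0448) to 0.06, and its call also ended without any single NC library (-1.96 to -1.86), MK1775 replicate 1 (-2.04) or 2 (-1.28), or replicate 3 of the group labelled Wee1 siRNA (-1.91). Sarnp fell by 3.09 and by 1.14 over its locus, and Nap1l4 by 1.48 and 0.41. The chaperone Hspa8 fell by 1.74 and 1.39, from 655 ± 135 to 198 ± 57.7 FPKM in its named transcripts. Of the rises, Il11, Atf3, Txnip and Atf5 differed by less than 0.1 between the 2 measures.

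**Figure D5:**
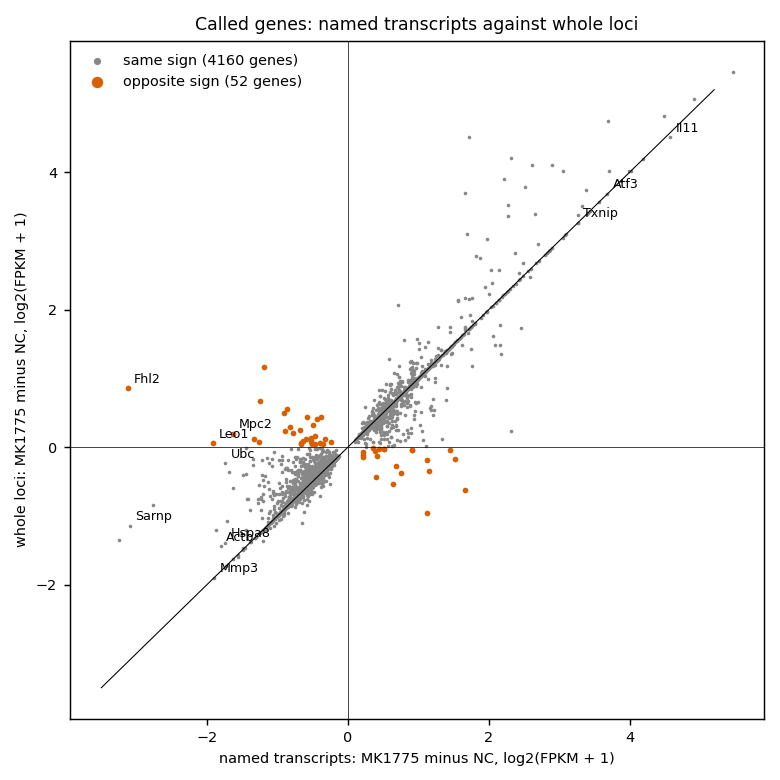
Difference between MK1775 and NC in the named transcripts (x axis) and in all transcripts of the locus (y axis), both log2(FPKM + 1), for 4212 called genes, with 52 genes of opposite sign in orange and a line where both are equal. Fhl2, Leo1 and Mpc2 lie above 0 on the y axis, and Il11, Atf3, Txnip and Mmp3 lie on the line.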

How the data were processed

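The authors deposited FPKM values per transcript and library, per the file headers, for reference transcripts and for 17991 assembled ones without a gene name. FastQC, Trim Galore, HISAT2 and StringTie (no versions) and the build GRCm39 are named in the submitters' processing notes. The sources used here give neither poly(A) selection nor strand, and reads of genes that overlap or run antisense therefore cannot be told apart. Counts were not used here, and depth is unknown. FPKM was summed over the named transcripts of a gene, names on more than 1 chromosome were left out, and genes averaging 1 FPKM or more in the 6 libraries entered the test as log2(FPKM + 1) with limma 3.58.1 in R 4.3.3 (all 9 libraries, 3 group means, eBayes with trend, Benjamini-Hochberg adjustment, two-sided, 0.05). On this scale the change of low genes is understated. An exact permutation of 3 against 3 cannot give a p below 0.1.

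The procedure was run on simulated data with known changes and noise of the same SD for every gene. That setting lacks unnamed transcripts, shared reads and a spread that varies with level, so it is no check on these. The 58 gene lists (1747 entries) and the members were chosen with earlier results of these data known, as was the comparison with whole loci, which pool every transcript of a locus. Named genes are Wee1, the 20 largest rises and 20 largest falls without overlap (leaving out names of Gm or LOC with a number or ending in Rik, and genes under 5 FPKM in the higher group), and up to 4 genes per list and direction with the smallest adjusted p, with some lists open in full. Not every gene the rule gives is described. Ndc80, Cenpf, Cdc6, H3f3b, Lars2, Arrdc3, Klf11, Fos, Sqstm1, Nbr1, B2m, H2-Q4, Srebf1, Zyx, Pkp3, Gas5, Malat1, Mcm6, Krt19, Cd68, Cd14, Itgam, Pdgfra and Pdgfrb were chosen outside it after their values were seen. Promoter windows are from RefSeq (GRCm38.p6), matched by symbol for 7853 tested genes, and no searched motif contains another. Alternatives changed the pseudocount, minimum, scaling, fit, transcript choice and libraries. Figures were drawn with matplotlib 3.10.9.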

Additional observations from a re-analysis of the deposited data

Results flagged for a closer look

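Transcripts in loci without any named gene, which no gene value uses, held a larger share of FPKM with MK1775 than in NC. The share was 3.46%, 3.5% and 3.47% in the MK1775 libraries (mean 3.48% ± 0.02, SD, n = 3) and 3.23%, 2.99% and 2.52% in NC (2.91% ± 0.36). The lowest MK1775 value lay above the highest NC value. With 3 libraries a group, the smallest two-sided exact permutation p is 0.1.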

How the results depend on the processing

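The main counts were 1791 genes higher and 2421 lower. They moved by more than 1.5 times with no minimum level (2999 higher, with 2212 lower, so that 57.6% of calls were rises against 42.5%), over whole loci (3175 higher and 3638 lower), with a minimum mean of 5 FPKM (1153 higher), at an adjusted p under 0.01 (1184 and 1570) and with a log2 limit of 1 (280 and 115). Leaving out 1 library at a time gave 1490 to 1827 higher and 1980 to 2455 lower. The replicate block gave 1504 and 1989. Deviations of same-numbered libraries correlated by 0.0413, 0.0266 and -0.0225, and those of the other pairs by -0.0738 to 0.0477. Deviations from a mean of 3 libraries sum to 0, so these values cannot decide whether same-numbered libraries were handled together. Fhl2 turned from -3.12 to 0.855, Leo1 from -1.91 to 0.061 and Mpc2 from -1.63 to 0.195, both with unnamed transcripts added and over whole loci. Of 192 called genes followed through the settings, 162 kept call and direction under all 24 settings that could be run for them. Cdh1, Aars, Cars, Dars, Pdgfra and Pdgfrb, also named here, were not followed. With the most abundant transcript alone, 66 called genes turned, and of the named genes not yet given with this setting E2f7 (-0.90), Arrdc3 (0.62), H2-Q4 (0.90), Nfkb2 (0.72), Zyx (-0.68), Snhg3 (-0.22), Pdcd4 (0.54), Myc (0.62), Hspa5 (0.74), Mpc2 (-2.01) and Hnrnpl (-0.97) were no longer called, and the cause was not tested. FPKM without read totals limits what can be said of low genes, and a minimum of 5 FPKM, which drops them, left 5 of 11 rises in the p53 list.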

Other observations

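Several values of the comparison belong to no account above. The ER chaperone Hspa5 rose from 529.8 ± 42.1 to 719 ± 8.69 FPKM. Proteasome genes fell in 16 of 38 (42.1%, against 23.4% of all genes) and rose in 8 (21.1%, against 17.3%). Mitochondrial ribosomal proteins fell in 22 of 64 tested (34.4%, against 23.4% of all genes), and 21 to 27 fell when single libraries were left out. Id2, an inhibitor of differentiation factors, rose from 14.2 ± 0.258 to 25.5 ± 0.97 FPKM. Ornithine decarboxylase (Odc1), the entry to polyamine synthesis and a Myc target, fell from 219.7 ± 71.5 to 114 ± 32.2 FPKM, a call that ended without NC replicate 3 (-0.69) or MK1775 replicate 3 (-0.70).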
